A study of Zea mays with 10 samples.

Results

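MEG1 (Zm00001d019030), MEG3 (Zm00001d019027) and MEG13 (Zm00001d019019) are 3 of the 45953 genes counted in bulk RNA-seq of developing maize endosperm, and they were taken by identifier, from both deposited count tables. All 10 libraries came from wild-type kernels of the inbred line B73. A replicated set held 3 endosperm libraries at 7 days after pollination (DAP) and 3 at 6 DAP, each from a pool of endosperms and, by the methods, each from its own ear. A second set held 1 library each of protoplasts and of undigested endosperm, at 7 and at 6 DAP, where protoplasts are cells freed from their walls with cellulase, macerozyme and pectolyase. The parents of these kernels are the same inbred line, so the reads cannot tell maternal from paternal alleles and the maternal expression in the genes' name could not be checked. The sample labels name a SMARTER library kit and pooling across 6, 7 and 8 DAP for every library, whereas the methods describe other library protocols and pools of 1 age. The labels also place the plants in a greenhouse, whereas the study's reporting form names a growing site and a summer season without a greenhouse. These differences could not be settled from the counts.

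MEG genes (for maternally expressed gene) encode small secreted peptides rich in cysteine, and MEG1 is made in the basal endosperm transfer layer, the cells at the base of the kernel that take up sugars and other nutrients from the mother plant through ingrown walls. MEG1 is imprinted early in seed development, when the maternal copy is transcribed, and its peptide promotes the formation of transfer cells. The transfer layer regulator MRP1, a MYB-related transcription factor, switches on MEG1 and other transfer layer genes. Not every member of the family marks that layer, and the study uses MEG14 as a marker of the embryo surrounding region.

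The study's annotation gave Zm00001d019030 the symbol MEG1 but the full name of maternally expressed gene 6, and the symbol is kept here. MEG3 and MEG1 carry closely numbered identifiers, with MEG7 (Zm00001d019029) directly before MEG1 and MEG14 (Zm00001d019033) shortly after it. The authors counted uniquely mapped reads, so reads shared by near-identical copies of this family are missing and each member's level is uncertain. The pair of oligonucleotides that the study listed under the name MEG13 is shown, but it was not matched here to the bases of the gene.
MEG13 forward: aggaattatgcgaggaaaagga
MEG13 reverse: tttagaagcaggcatgactaca
Each is 22 bases long, written 5′ to 3′. Genome positions were not used here.

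Libraries of the replicated set held 15911047 to 24311056 counts, and those of the second set 22234742 to 30203337. No 2 replicates of a stage agreed within sampling noise. All 12 transfer layer markers had at least 10 counts in every library, so the layer's transcripts were sampled throughout. The aleurone marker 1d024210 was at 0 counts in all 10 libraries. Embryo markers, 4 oil body and globulin genes, were present too and summed to 566 to 593 CPM (each gene's share of a library's counts, as counts per 1000000) at 7 DAP, against 62.2 to 69.3 CPM at 6 DAP in the replicated set.

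Between 6 and 7 DAP the MEG genes lost much of their share of endosperm transcripts. MEG1 was 3.22-fold lower at 7 DAP than at 6 DAP, MEG13 3.65-fold lower and MEG3 2.37-fold lower. All 3 of 3 genes fell in edgeR's quasi-likelihood test, adjusted over all genes, at a limit of 0.05. Across the 21486 genes tested, 28.0% fell, so a fall alone was common, but few genes fell as far. In bulk tissue, fewer transfer cells, less RNA per transfer cell and more RNA from other cells cannot be told apart.

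MEG1 was at 53.5, 53.3 and 54.6 CPM in the 7 DAP libraries, against 153, 155 and 172 CPM at 6 DAP. The 7 DAP libraries lay within a narrow band far below the lowest 6 DAP library, and the groups did not overlap. How many of all genes separate the stages in this way was not counted, here and below. In the edgeR test 28.0% of all genes fell and 28.2% rose. The means were 53.8 ± 0.72 CPM at 7 DAP and 160.0 ± 10.4 CPM at 6 DAP (SD, n = 3 each), and the log2 fold change was -1.69 (SE 0.05, adjusted p = 1.27e-17, edgeR).

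MEG13 was at 38.4, 36.6 and 37.6 CPM at 7 DAP, against 124, 121 and 134 CPM at 6 DAP. It showed the same picture of tight 7 DAP libraries with no overlap between stages. The means were 37.5 ± 0.91 CPM at 7 DAP and 126 ± 7.04 CPM at 6 DAP (SD, n = 3 each), and the log2 fold change was -1.87 (SE 0.05, adjusted p = 3.63e-18, edgeR).

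MEG3 was at 5.85, 6.24 and 9.12 CPM at 7 DAP, against 15.8, 13.8 and 17.2 CPM at 6 DAP. Here the replicates spread more, because the third 7 DAP library stood above the other two, yet the stages still did not overlap. The 7 DAP libraries held only 93, 126 and 181 counts of MEG3, against 383, 224 and 304 counts at 6 DAP. The means were 7.07 ± 1.79 CPM at 7 DAP and 15.6 ± 1.72 CPM at 6 DAP (SD, n = 3 each), and the log2 fold change was -1.25 (SE 0.13, adjusted p = 9.03e-08, edgeR).

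**Figure D1:**
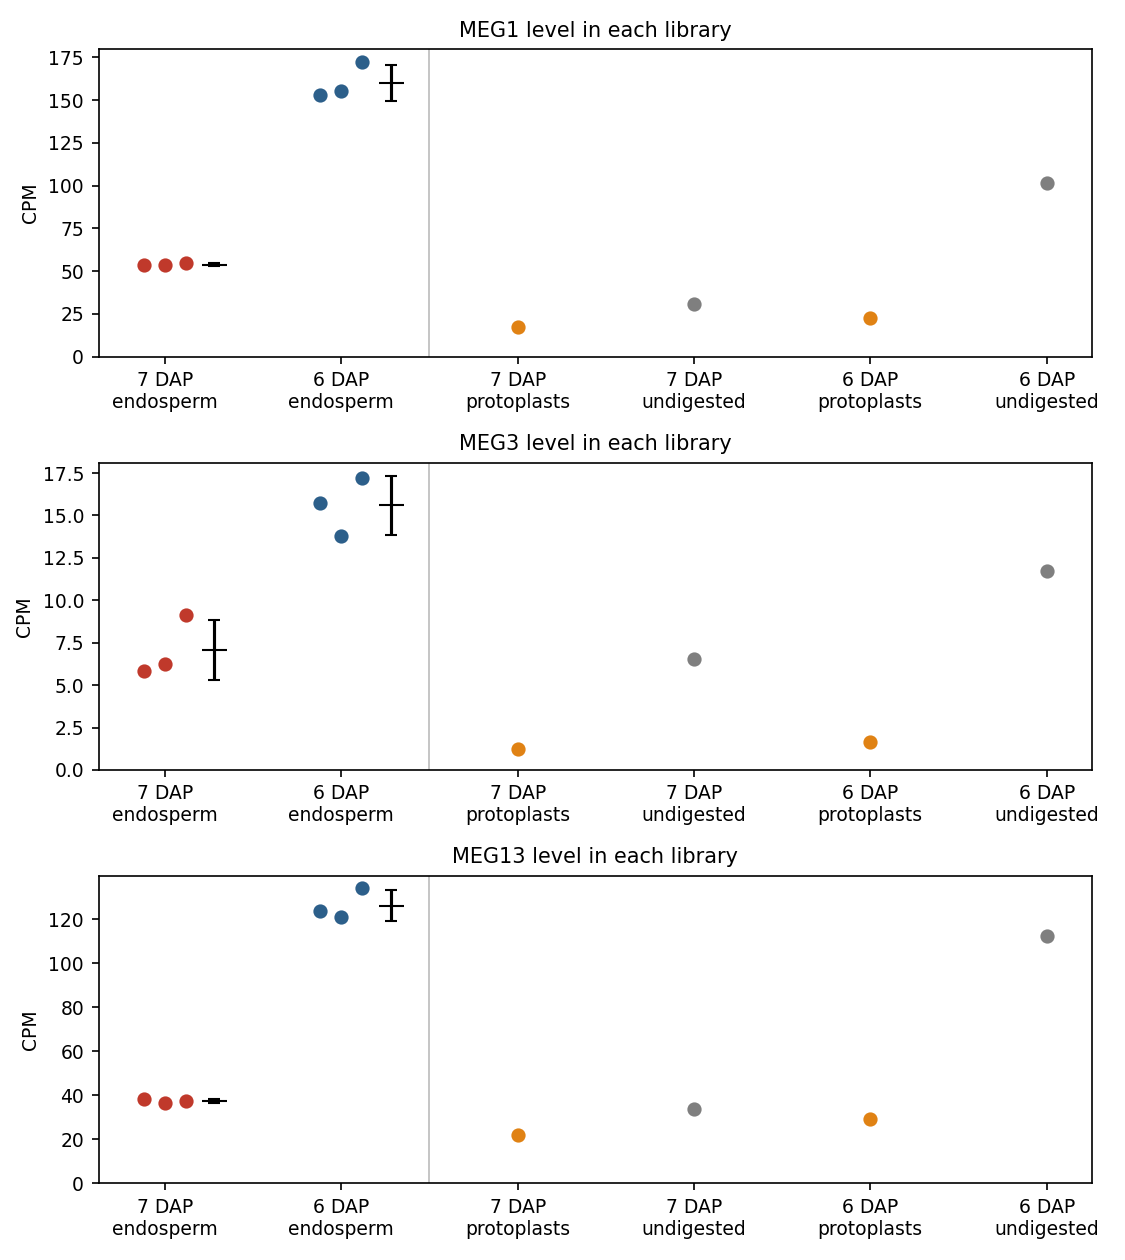
Level (CPM, linear axis from 0) of MEG1, MEG3 and MEG13 in each of the 10 libraries, 1 point a library, with the mean and SD beside the replicated groups. All 3 genes lie lower in 7 DAP than in 6 DAP endosperm, and the protoplast points lie under the undigested points of the same age, as for MEG1 at 22.5 against 101 CPM at 6 DAP.

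None of the 3 genes reached the study's stricter limit of a log2 fold change below -2, which 0.451% of all genes passed, and 0 of 3 passed it with DESeq2 as well, although all 3 passed the adjusted p in both tools. Of the 21486 genes tested, 127 fell further than MEG13 (0.591%), 179 further than MEG1 (0.833%) and 344 further than MEG3 (1.60%). The scaling matters for the whole table. With library totals in place of TMM factors, the median change of all genes moved by 0.12 on the log2 scale, and the 6025 lower and 6067 higher calls became 4158 lower and 8360 higher. Under that scaling the MEG genes still fell, with log2 fold changes of -1.57 (MEG1), -1.13 (MEG3) and -1.75 (MEG13).

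In these libraries the falls of the MEG genes differed in size. Ratios of counts between 2 genes of the same library need no scaling, so they show unequal change directly, though not which gene has more transcript, because gene lengths were not used here. The MEG13 to MEG1 ratio was 0.718, 0.686 and 0.688 at 7 DAP, against 0.810, 0.778 and 0.781 at 6 DAP. All 7 DAP libraries were below all 6 DAP libraries, with a mean log2 difference of -0.18. The MEG3 to MEG1 ratio was 0.109, 0.117 and 0.167 at 7 DAP, against 0.103, 0.0888 and 0.1002 at 6 DAP, a mean log2 difference of 0.41 in the other direction.

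The MEG3 to MEG13 ratio was likewise higher at 7 DAP, at 0.152, 0.171 and 0.243, against 0.127, 0.114 and 0.128 at 6 DAP, a mean log2 difference of 0.59. Each of the 3 ratios separated the stages without overlap, and each gave p = 0.1 in the two-sided exact permutation test, adjusted p = 0.1 over the 3 ratios, the smallest that 3 against 3 libraries allow. For MEG3 to MEG1 the gap was narrow, at 0.109 in the lowest 7 DAP library against 0.103 in the highest 6 DAP library. Counting error of these ratios was not weighed. The differences with MEG3 rested in part on the third 7 DAP library. Without it they were 0.22 (MEG3 to MEG1) and 0.39 (MEG3 to MEG13).

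The second set kept other proportions. The MEG13 to MEG1 ratio was 1.26 in 7 DAP protoplasts and 1.09 in 7 DAP undigested endosperm, and 1.29 in 6 DAP protoplasts and 1.11 in 6 DAP undigested endosperm. All 4 values were above 1, whereas all 6 libraries of the replicated set were below 1. MEG3 stood out for its loss in protoplasts, with a MEG3 to MEG1 ratio of 0.0718 in 7 DAP protoplasts against 0.210 in 7 DAP undigested endosperm, and 0.0737 in 6 DAP protoplasts against 0.116 in 6 DAP undigested endosperm. The sets differ in their preparation and were not replicated alike, so the difference between them was not tested.

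**Figure D2:**
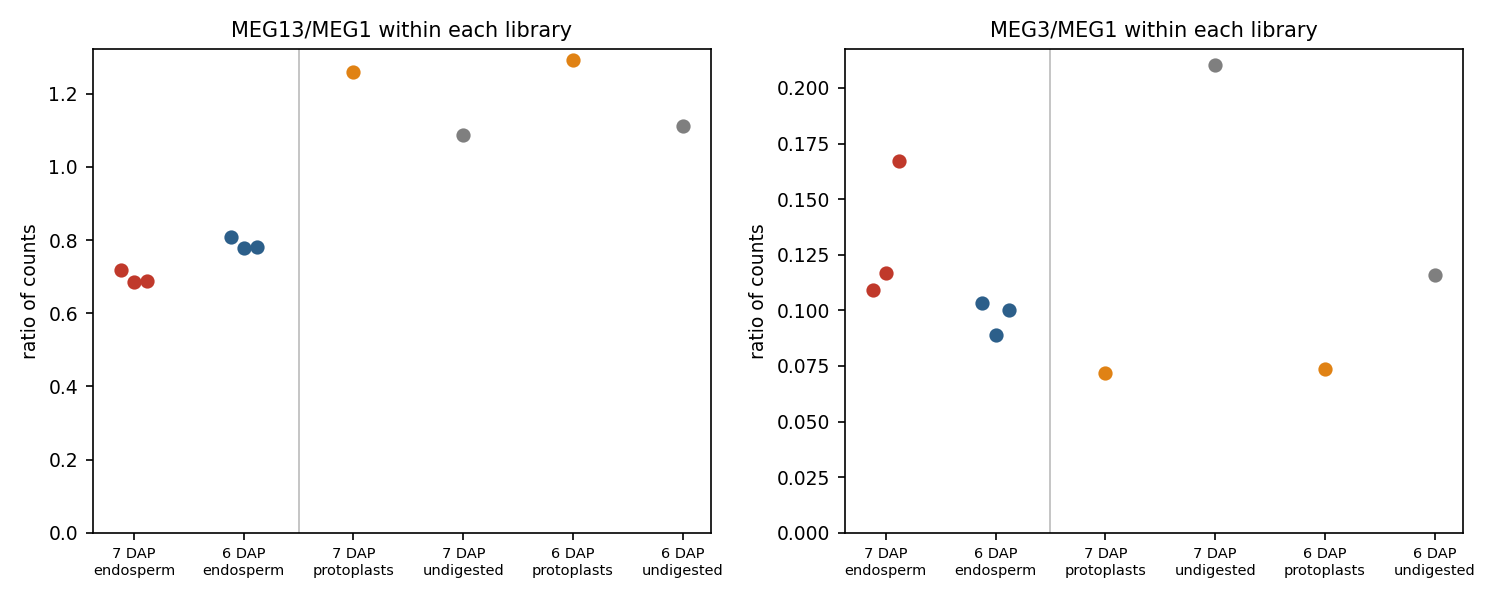
Ratio of raw counts within each library (linear axis from 0) of MEG13 to MEG1 on the left and of MEG3 to MEG1 on the right, 1 point a library. MEG13 to MEG1 lies between 0.686 and 0.810 in the replicated set and between 1.09 and 1.29 in the second set, and MEG3 to MEG1 is lowest in the protoplasts (0.0718 and 0.0737).

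Levels of each gene ran in the same order across the 6 groups. From low to high, MEG1 was at 17.5 CPM in 7 DAP protoplasts, 22.5 CPM in 6 DAP protoplasts, 31.0 CPM in 7 DAP undigested endosperm, 53.8 CPM in 7 DAP replicated endosperm, 101 CPM in 6 DAP undigested endosperm and 160.0 CPM in 6 DAP replicated endosperm. Undigested endosperm was thus below the replicated endosperm of its age, outside the range of those 3 libraries. MEG13 was at 22.1, 29.0, 33.7, 37.5, 113 and 126 CPM in that order of groups, and its undigested libraries were closer to the replicated ones. For MEG3 the values were 1.26, 1.66, 6.52, 7.07, 11.7 and 15.6 CPM. Its protoplast libraries, with 38 counts at 7 DAP and 44 counts at 6 DAP, did not differ beyond counting error, and its 7 DAP undigested library lay inside the range of the 7 DAP replicates.

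The other 2 genes named MEG differed from each other. MEG7 was at 2.70, 2.57 and 2.97 CPM at 7 DAP, against 9.17, 9.30 and 8.33 CPM at 6 DAP. It fell without overlap, by 1.81 on the log2 scale (SE 0.14, adjusted p = 6.25e-10, edgeR). MEG14, the study's marker of the embryo surrounding region, was at 246, 254 and 263 CPM at 7 DAP, against 36.0, 33.2 and 33.6 CPM at 6 DAP. It rose 6.83-fold (log2 fold change 2.77, SE 0.04, adjusted p = 2.34e-22, edgeR), with the stages far apart. The 5 listed markers of that region rose as well, where 28.2% of all genes did, with log2 fold changes from 1.89 to 2.58.

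The count table listed 18 other identifiers numbered within 10 below or above the span of the 3 genes, MEG7 and MEG14 among them. Of these, 10 were not tested, 9 of them at 0 counts in all 10 libraries and the other with 1 count in all. Of the 8 tested, 6 rose, 1 fell and 1 was not called, where 28.2% of all genes rose. Zm00001d019032 had 202, 193 and 194 CPM at 7 DAP, against 28.6, 29.7 and 34.9 CPM at 6 DAP, and rose with a log2 fold change of 2.55 (SE 0.05, adjusted p = 1.04e-19, edgeR).

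Zm00001d019035 had almost no reads at the earlier stage, with 2821, 3574 and 3622 counts at 7 DAP, against 5, 3 and 3 counts at 6 DAP. Its fitted log2 fold change was 9.72 (SE 0.09, adjusted p = 2.97e-25, edgeR), a size that depends on how the few 6 DAP counts are treated. The identifiers around the MEG genes thus held genes that fell and genes that rose over the same day. The fall was not shared by the whole neighbourhood.

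Transcription factors whose target lists in the study include a MEG gene fell with them. MRP1 and MYBR19 were linked there to all 3 MEG genes, MYBR33 to MEG3 and MEG13, MYBR29 to MEG13, and HB118, a homeobox factor, and MYBR81 to MEG3. The MYBR genes encode MYB-related proteins, as MRP1 does. All 6 of these 6 factors fell at 7 DAP, where 28.0% of all genes did, with log2 fold changes from -1.87 (HB118) to -1.30 (MYBR33). MRP1 was at 12.4, 13.0 and 12.6 CPM at 7 DAP, against 28.0, 30.8 and 30.4 CPM at 6 DAP, and fell 2.53-fold (log2 fold change -1.34, SE 0.07, adjusted p = 2.67e-12, edgeR). MYBR19 was at 6.16, 6.14 and 6.10 CPM at 7 DAP, against 18.8, 17.2 and 21.3 CPM at 6 DAP, a 3.38-fold fall (adjusted p = 7.82e-12, edgeR). These target lists were built by the study in part from endosperm expression, so they are not independent of the direction seen here.

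Most listed genes of the layer moved in the same direction. Of 12 transfer layer markers, 11 fell, where 28.0% of all genes did, and 1 was not called, with a median log2 fold change of -1.54. The largest falls were those of TCRR1 (-2.25) and TCRR2 (-2.09), response regulators of transfer cells, and of MN1 (-2.22), the cell wall invertase that splits incoming sucrose. The small transfer layer peptides BETL9 (-1.52), BETL10 (-1.40), BETL3 (-1.43) and BAP2 (-1.64) fell too, as did gpm832 (-1.56) and the genes 1d053108 (-1.52), 1d052759 (-1.43) and 1d053785 (-1.61). SWEET4C, a hexose transporter of the layer, was the exception at -0.05 (SE 0.04, adjusted p = 0.374, edgeR). The falls of MEG1 and MEG13 were larger than those of 9 of these 12 markers and that of MEG3 was larger than that of SWEET4C alone, differences that were not tested.

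Summed over the 3 MEG genes, the level was 97.7, 96.1 and 101 CPM at 7 DAP, against 292, 290.1 and 323 CPM at 6 DAP. Summed over the 12 markers, it was 2397, 2391 and 2431 CPM at 7 DAP, against 6459, 6473 and 6828 CPM at 6 DAP. The MEG genes therefore came to 4.08%, 4.02% and 4.17% of the marker sum at 7 DAP, against 4.52%, 4.48% and 4.74% at 6 DAP, a measure chosen after the values were seen and not tested. Both sums were lower at 7 DAP, and the share of the MEG genes was slightly lower too, without overlap. In the study's longer list of transfer layer cluster genes, without the MEG genes, 325 of 382 tested genes fell, 16 rose and 41 were not called. The share that fell was 85.1%, against 28.0% of all genes. The median change was -0.47 on the log2 scale against 0.02 over all genes. Of those 382 genes, 17 fell further than MEG13, 24 further than MEG1 and 58 further than MEG3.

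Markers of other cell types went up over the same day. All 5 embryo surrounding region markers rose (median of 2.16 on the log2 scale), where 28.2% of all genes did. So did all 3 markers of the endosperm adjacent to the scutellum (1.58), all 3 tested aleurone markers (0.62) and all 4 embryo markers (3.27). In the starchy endosperm list, 4 of 5 rose, including the storage protein gene ZP27 (2.43) and the starch synthesis gene SH2 (2.18), and FL3 fell by 0.80 on the log2 scale. CPM is a share of the library, and these higher levels stood beside the lower MEG levels in the same libraries. Their part in the fall of the MEG genes was not tested.

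**Figure D3:**
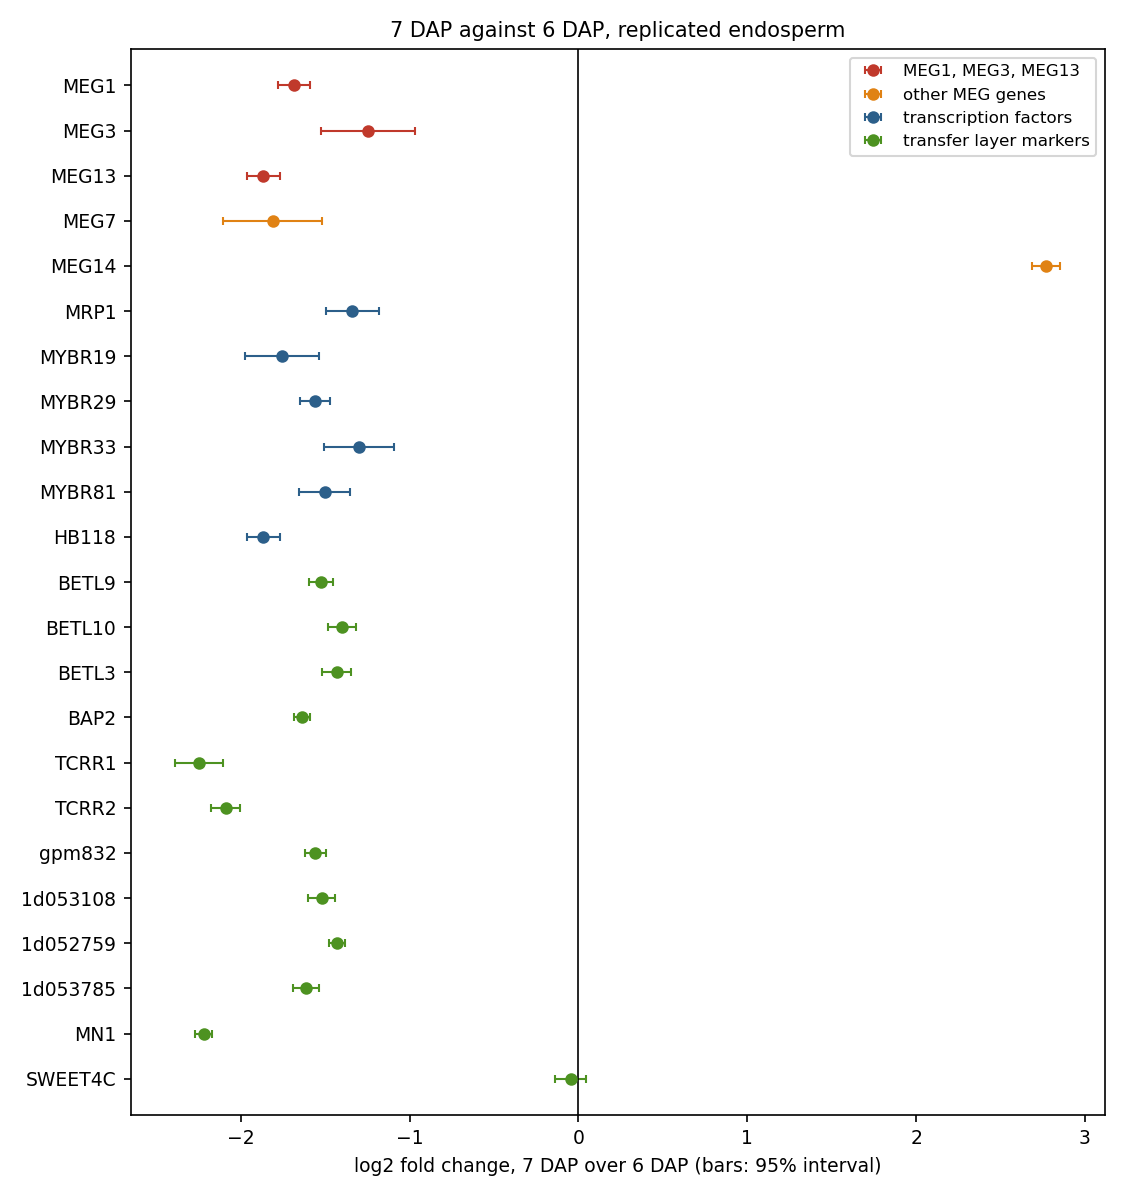
Log2 fold change of 7 DAP over 6 DAP endosperm (points) with 95% intervals (bars) for MEG1, MEG3 and MEG13, the other MEG genes, 6 transcription factors and 12 transfer layer markers, 3 libraries a stage. All points lie left of 0 except MEG14 at 2.77, and the interval of SWEET4C (-0.05) spans 0.

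In the second set each stage and preparation had 1 library, so its stage differences carry counting error only (95% exact binomial intervals) and no test. In undigested endosperm, MEG1 was 3.27-fold lower at 7 DAP, with an interval of 3.00 to 3.57 and levels of 31.0 CPM at 7 DAP and 101 CPM at 6 DAP. MEG13 was 3.34-fold lower (3.08 to 3.63), at 33.7 CPM against 113 CPM, and MEG3 was 1.80-fold lower (1.47 to 2.22), at 6.52 CPM against 11.7 CPM. On the log2(CPM + 1) scale 2 of 3 genes, MEG1 and MEG13, dropped past -1, as 1.10% of the 20591 genes at a mean CPM of 1 or more did. MEG3 changed least of the 3, as in the replicated set.

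Between the protoplast libraries the stage difference was small. MEG1 was 1.28-fold lower at 7 DAP (1.14 to 1.45), at 17.5 CPM against 22.5 CPM at 6 DAP. MEG13 was 1.32-fold lower (1.19 to 1.46), at 22.1 CPM against 29.0 CPM, and for MEG3 the interval of 0.834 to 2.09 around 1.32-fold includes no change. On the log2(CPM + 1) scale 0 of 3 genes passed -1, against 0.311% of all genes. MEG14, by contrast, was 14.3-fold higher at 7 DAP in protoplasts (12.3 to 16.6) and 6.91-fold higher in undigested endosperm (6.46 to 7.40).

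The intervals of MEG1 and MEG13 in protoplasts did not meet those in undigested endosperm, but with 1 library for each, whether the stage difference changes with digestion was not tested. In these libraries the ratio of 7 to 6 DAP was nearer to 1 in protoplasts than in undigested endosperm for all 3 MEG genes, for 5 of the 6 transcription factors and for 11 of the 12 transfer layer markers, all but SWEET4C. HB118, for example, was at 66.5 CPM in 7 DAP and 68.0 CPM in 6 DAP protoplasts, while its undigested levels were 27.7 CPM at 7 DAP and 108 CPM at 6 DAP. MYBR19 was the transcription factor without this contrast, and was 3.96-fold lower at 7 DAP in protoplasts (3.21 to 4.92) and 3.09-fold lower in undigested endosperm (2.58 to 3.71). How many of all genes lay nearer to 1 in protoplasts was not counted. The genes nearer to 1 did not all fall less, and some rose. Among such genes, 1d053108 (1.95), BETL3 (1.47), 1d053785 (1.28), MYBR81 (1.17), 1d052759 (1.15) and MYBR29 (1.08) were higher at 7 DAP in protoplasts. All of these fell in undigested endosperm, and the other genes of these lists that were nearer to 1 stayed below 1 in protoplasts. The same contrast occurred outside the layer, as for the aleurone marker AL9 (1.96 undigested, 1.61 protoplasts) and the embryo marker OLE1 (9.28 and 3.59). It was absent for the embryo surrounding region marker ESR1 (6.33 and 7.62) and for MEG7 (0.355 and 0.176). MEG7 had only 2 counts at 7 DAP and 10 counts at 6 DAP in protoplasts.

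**Figure D4:**
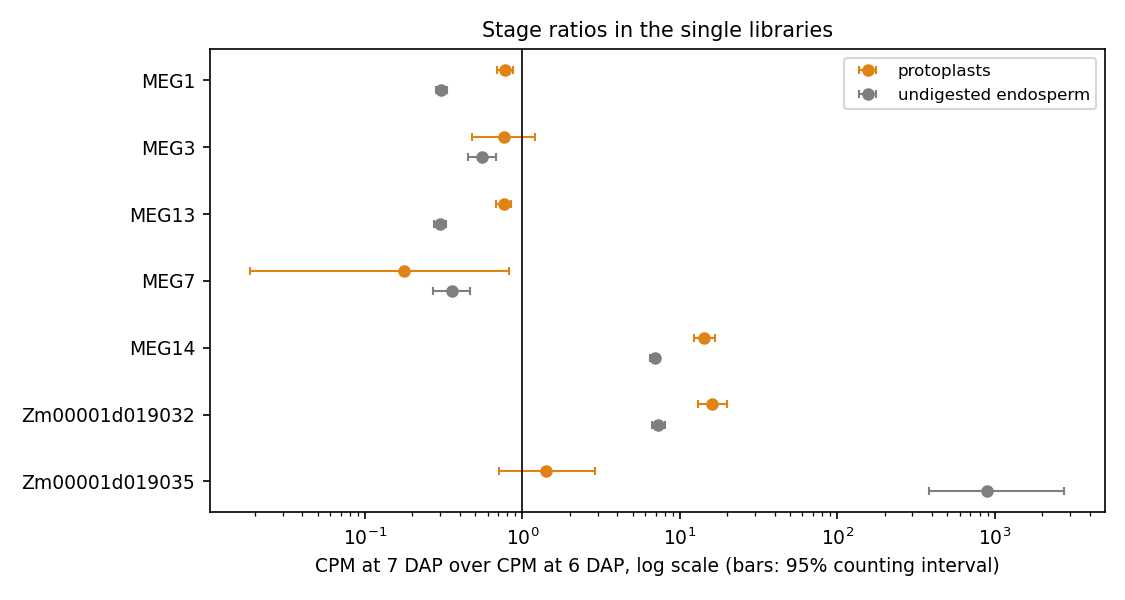
Ratio of CPM at 7 DAP to CPM at 6 DAP (log axis, bars are 95% counting intervals) in protoplasts and in undigested endosperm, 1 library for each stage and preparation. MEG1 and MEG13 lie nearer to 1 in protoplasts than in undigested endosperm, MEG14 and Zm00001d019032 lie right of 1 in both, and Zm00001d019035 is far right in undigested endosperm alone (893-fold, 383 to 2753).

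MEG transcripts were less abundant in protoplasts than in undigested endosperm of the same age. At 6 DAP the levels in protoplasts against undigested endosperm were 22.5 against 101 CPM for MEG1, 29.0 against 113 CPM for MEG13 and 1.66 against 11.7 CPM for MEG3. That was 4.51-fold (4.12 to 4.94), 3.88-fold (3.58 to 4.21) and 7.09-fold (5.14 to 9.98) lower in protoplasts, and 3 of 3 genes dropped past -1 on the log2(CPM + 1) scale, as 9.12% of all genes did. At 7 DAP the levels were 17.5 against 31.0 CPM for MEG1, 22.1 against 33.7 CPM for MEG13 and 1.26 against 6.52 CPM for MEG3, or 1.77-fold (1.58 to 1.99), 1.53-fold (1.38 to 1.70) and 5.18-fold (3.60 to 7.62) lower in protoplasts. Only MEG3, 1 of 3, dropped past -1 at that age, as 12.7% of all genes did.

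With both ages in one fit and age as a covariate, the ages stand in for replicates and 1 residual degree of freedom is left. The variance used for each gene is therefore borrowed in part from other genes. MEG3 fell with a log2 fold change of -2.43 (SE 0.31, adjusted p = 0.00488) and MEG1 with -1.34 (SE 0.37, adjusted p = 0.0413, edgeR for both). MEG13 had a log2 fold change of -1.12 (SE 0.36, adjusted p = 0.0632, edgeR) and was not called. So 2 of 3 genes fell, where 16.3% of the 22799 genes tested did. Library totals in place of TMM turned the 3725 lower and 5255 higher calls into 5433 lower and 4651 higher, and moved the median of all genes by -0.17 on the log2 scale.

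Both borderline calls depended on the settings. The adjusted p of MEG13 ranged from 0.00851 (DESeq2) to 0.110 (no age covariate), and that of MEG1 from 0.00156 (DESeq2) to 0.0743 (no age covariate). MEG3 was past the limit under every alternative with a test. Among the 22799 genes, 355 fell further than MEG3 (1.56%), 1432 further than MEG1 (6.28%) and 1960 further than MEG13 (8.60%).

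The other MEG genes were lower in protoplasts as well. MEG7 was nearly lost, with 2 counts in 7 DAP protoplasts against 77 in 7 DAP undigested endosperm, and 10 counts in 6 DAP protoplasts against 226 in 6 DAP undigested endosperm. By counting error alone it was 52.3-fold lower at 7 DAP (14.0 to 440) and 25.9-fold lower at 6 DAP (13.8 to 54.8), and its fitted log2 fold change was -4.82 (SE 0.44, adjusted p = 0.00207, edgeR). MEG14, at 102 against 288 CPM at 7 DAP and 7.12 against 41.7 CPM at 6 DAP, fell with a log2 fold change of -1.83 (SE 0.30, adjusted p = 0.00987, edgeR), a call that was lost without the age covariate.

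No drop was called among the 6 transcription factors. None of the 6 was called in edgeR and none in DESeq2, and 1 of 6 had an unadjusted p under 0.05 in edgeR, MYBR19 (log2 fold change -0.59, adjusted p = 0.0650). MRP1 was at 16.0 CPM in 7 DAP protoplasts against 11.2 CPM in undigested endosperm, and at 19.2 CPM in 6 DAP protoplasts against 28.2 CPM in undigested endosperm, so its difference changed sign with age. Its log2 fold change of 0.14 had an interval of -0.67 to 0.94. Intervals this wide leave room for sizeable changes in either direction.

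Of the 12 transfer layer markers 3 fell in protoplasts, BETL9 (-1.69), MN1 (-1.67) and TCRR2 (-1.08), the last of these and MN1 only with the age covariate, and 9 were not called, with a median log2 fold change of -0.40. Their summed level was 2344 CPM in protoplasts against 2303 CPM in undigested endosperm at 7 DAP, but 2254 against 6512 CPM at 6 DAP. The MEG genes came to 1.74% of that sum in 7 DAP protoplasts against 3.09% in undigested endosperm, and to 2.36% in 6 DAP protoplasts against 3.47% in undigested endosperm. In the fit, the drop of MEG3 was larger than those of all 12 markers and the drops of MEG1 and MEG13 were larger than those of 10 of the 12, with BETL9 and MN1 as the exceptions, differences that were not tested. In the longer cluster list 74 of 382 genes fell (19.4%, against 16.3% of all genes) and 37 rose (9.69%, against 23% of all genes). The median of the list was -0.17, against -0.03 over all genes, and 1 of the 382 fell further than MEG3.

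Markers of other cell types were called in part, where 16.3% of all genes fell. All 5 embryo surrounding region markers fell (median -1.64), with 4 of 5 starchy endosperm markers (-2.20), 2 of 3 of the endosperm adjacent to the scutellum (-2.32) and 1 of 3 aleurone markers (-0.51), while 0 of 4 embryo markers were called, in edgeR and DESeq2 alike and at an unadjusted p under 0.05. The part of these changes in the MEG values was not tested.

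**Figure D5:**
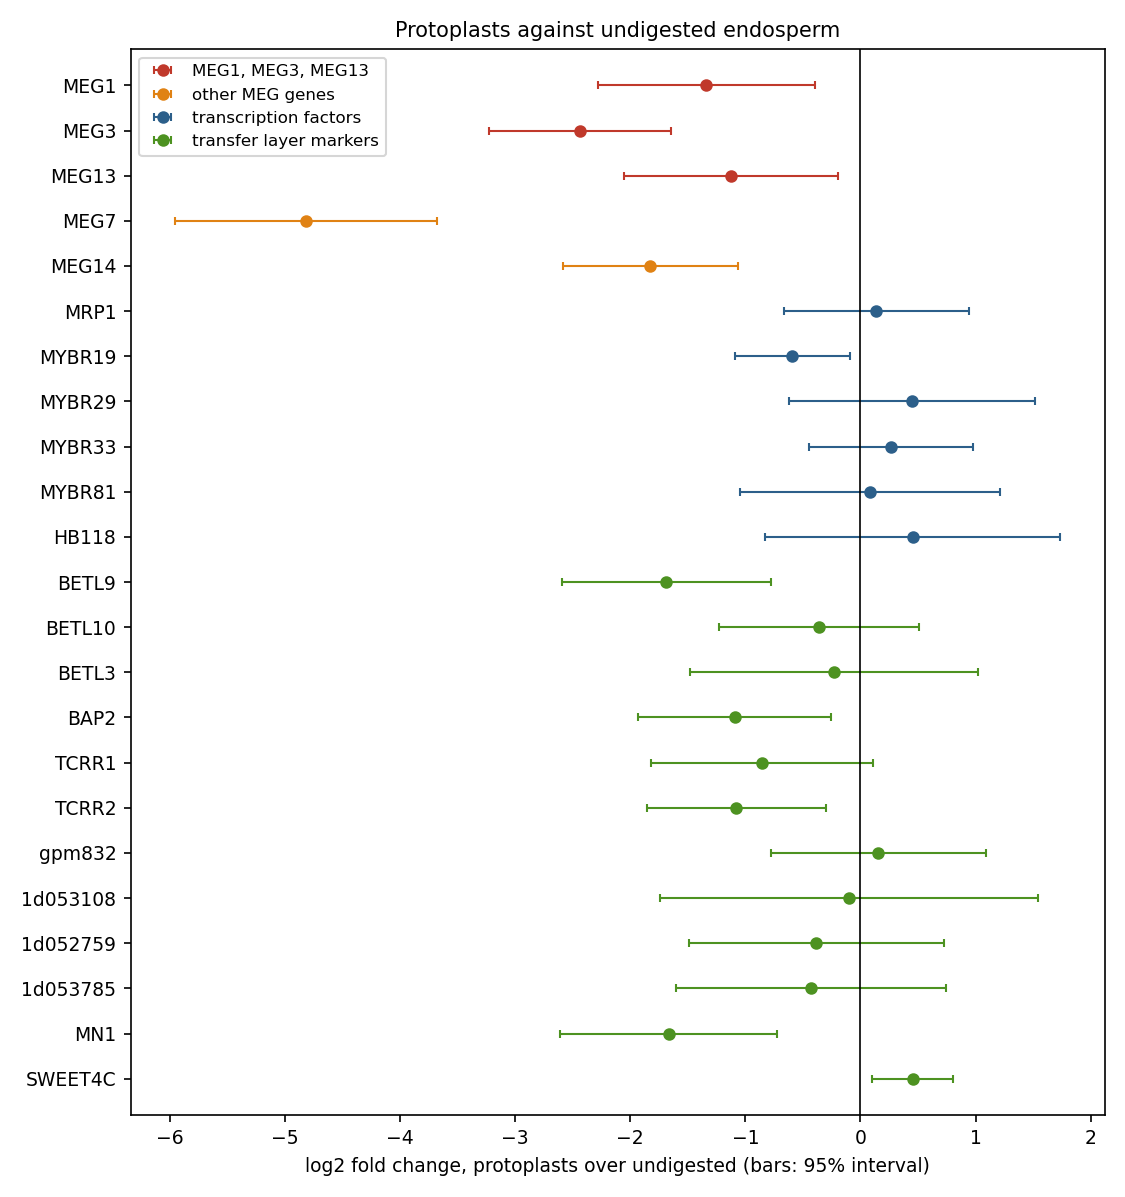
Log2 fold change of protoplasts over undigested endosperm (points) with 95% intervals (bars) from a fit over 4 libraries with age as a covariate, for the same genes as in the stage comparison. MEG7 (-4.82) and MEG3 (-2.43) lie farthest left, MEG1 and MEG13 lie at -1.34 and -1.12 with wide intervals, and 5 of the 6 transcription factors have intervals that span 0.

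Across all 10 libraries the MEG genes had similar profiles of log2(CPM + 1). Pearson's r was 0.96 between MEG13 and MEG1, 0.94 between MEG3 and MEG1 and 0.88 between MEG3 and MEG13, as a description over libraries that share age, preparation and depth. MEG7 was also alike, with r of 0.97 to MEG3, whereas MEG14 had r of -0.23 to MEG1 and -0.42 to MEG13. Among the 20420 genes at a mean CPM of 1 or more, those most alike to MEG1 were 1d024620 (r 0.996), 1d024610 (0.995) and 1d007470 (0.995), all in the transfer layer cluster list. For example, 1d024620 averaged 51.8 CPM in 7 DAP endosperm against 162 CPM in 6 DAP endosperm, and stood at 17.8 CPM in 6 DAP protoplasts against 81.7 CPM in 6 DAP undigested endosperm.

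Genes most alike to MEG13 were HIS2B5 (r 0.996), DRG10 (0.994) and pco154872 (0.993), of which the last is in the cluster list. Those most alike to MEG3 were pco078642, Zm00001d009156 (0.990 each) and Zm00001d019490 (0.988), none of them in that list. Of the 100 genes most alike to each, 21 for MEG1, 18 for MEG13 and 4 for MEG3 were in the cluster list, which made up 1.87% of the genes compared. These rankings were fragile. With TMM factors 4 of the 9 genes named here were again among the 3 most alike to the same MEG gene. With each set centred on its own mean only 1d024620 was, with BAP2 then second for both MEG1 and MEG13 (r 0.998 each), while 1d007470, named here for MEG1, was then among the 3 most alike to MEG13 (r 0.998).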

How the data were processed

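Bulk RNA-seq covered 10 B73 endosperm libraries. The authors trimmed reads with Trimmomatic 0.39, aligned them with STAR to the B73 version 4 genome, counted uniquely mapped reads with featureCounts 2.0.1 and deposited the raw count of each of 45953 genes, not normalized. From these counts, edgeR 4.0.16 in R 4.3.3 was fitted over all genes (TMM, filterByExpr, quasi-likelihood F test, Benjamini-Hochberg adjustment, limit 0.05), separately for 7 against 6 DAP (21486 genes, 6 libraries) and for protoplasts against undigested endosperm with age as a covariate (22799 genes, 4 libraries). Levels are CPM of library totals. Single libraries were compared on log2(CPM + 1), with 95% exact binomial intervals that cover counting error only, since reads carry no molecular identifiers. In the stage comparison the labels name replicates, and p-values measure the spread between them. In the protoplast comparison the 2 ages stand in for replicates, and p-values measure what is left after age and preparation. The fits leave 4 (stage) and 1 (protoplasts) residual degrees of freedom, and edgeR draws each gene's variance toward that of other genes. The p-values of both comparisons therefore rest in part on the spread of other genes.

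Named are the 3 MEG genes, MEG7, MEG14, neighbouring identifiers past the adjusted p and a log2 fold change over 1, 6 transcription factors, cell type markers and the 3 genes most alike to each MEG gene. Members, lists, tests and alternatives were chosen with earlier results of these data known, and the study displays the 3 MEG genes with these libraries, so their direction is not independent evidence. Alternatives were DESeq2 1.42.0, other normalizations, filters, pseudocounts and covariates, thinning, a replicate block and leaving out each library. On simulated counts, 200 of 200 genes changed by 1.5 (log2) were recovered with 9 false calls in the stage design, and 196 of 200 changed by 2 with 13 false calls in the protoplast design. The simulation gave all genes the same dispersion and changed only well-counted genes. Its change of 2 exceeds those of MEG1 (-1.34) and MEG13 (-1.12) in protoplasts, so it does not show the power for their calls. Of the RefSeq gene table (49888 genes of another assembly), 0 columns held the files' identifiers, so names came from the study's tables. Promoter and protein sequences were not analysed here.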

Additional observations from a re-analysis of the deposited data

How the results depend on the processing

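The fall of MEG1, MEG3 and MEG13 between 6 and 7 DAP kept its direction and stayed past the limit under every alternative run. Leaving out each library once, log2 fold changes ranged from -1.73 to -1.63 for MEG1, from -1.47 to -1.14 for MEG3 (-1.47 without the third 7 DAP library) and from -1.90 to -1.82 for MEG13. Replicate numbers did not pair the libraries, since same-numbered deviations correlated at 0.07, 0.01 and -0.002. With the replicate block the log2 fold changes were -1.69, -1.26 and -1.87, and 5945 genes fell, against 6025 without it. The ratio differences of 0.41, -0.18 and 0.59 cannot change under this block, so it was no check on them. With equal numbers of libraries a stage, the mean paired difference is the difference of the means.

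In the protoplast comparison MEG13 passed the limit with library totals (-1.29, adjusted p = 0.0235), without a filter (-1.11, 0.0480) and in DESeq2 (-1.12, 0.00851), within a range of 0.00851 to 0.110. MEG1 missed it without the age covariate (-1.58, 0.0743) and after thinning (-1.28, 0.0525), within 0.00156 to 0.0743, all by edgeR unless named. The cause was not tested. Of the 9 genes named as most alike, 4 remained for the same MEG gene with TMM factors and 1 with centred sets.

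Signs turned only for values that were not called. With library totals these were SWEET4C (0.069) and Zm00001d019039 (0.068) between stages, and MRP1 (-0.029), MYBR81 (-0.083), gpm832 (-0.012), OLE3 (-0.075) and Zm00001d019039 (-0.047) between preparations. With single libraries left out, Zm00001d019039 ranged from -0.082 to 0.0019. Without the age covariate, MRP1 was at -0.013, MYBR81 at -0.092, gpm832 at -0.067 and OLE3 at -0.25. Genes past the log2 limit of 2 numbered 97 lower and 545 higher, but 215 and 983 without a filter, and 45 and 166 where every library had to hold 10 counts. MEG3, at 38 to 383 counts, and MEG7 are limited by depth.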
